A study of Phaseolus vulgaris with 18 samples.

Results

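IAGLU is the name that the deposited annotation gives to the common bean gene Phvul.001G265400, which it describes as an indole-3-acetate beta-D-glucosyltransferase. It was chosen by its identifier, as 1 gene of the 27420 in the table, because its transcript level in earlier summaries of these libraries was high in young grain, low in older grain and higher in older than in younger pod. Those levels and the differences between them chose the gene, so they are given here as a description, with no test. The study measured messenger RNA by sequencing in grain and pod of Phaseolus vulgaris, the common bean, in material numbered 4004, with no treatment named. There were 3 stages, 10, 15 and 20 DAF (taken to mean days after flowering), with 3 libraries for each stage of each tissue, 18 in all. The 6 groups were grain at 10 DAF, grain at 15 DAF, grain at 20 DAF, pod at 10 DAF, pod at 15 DAF and pod at 20 DAF. Whether the 3 libraries of a group are separate plants is not said in the labels, so the p-values given for other genes measure the spread between these libraries, which may be technical.

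Indole-3-acetic acid is the main natural auxin, a hormone that governs cell division, cell expansion and the setting of organ pattern in seeds and fruits. Enzymes named IAGLU were described from maize kernels, where they join glucose from UDP-glucose to the acid group of indole-3-acetic acid and form an ester that is not active as a hormone. Plants also join auxin to amino acids through GH3 enzymes, and amidohydrolases such as ILR1 and IAR3 of Arabidopsis can free it again. The name of the bean gene rests on sequence likeness in the deposited annotation. Neither the activity of the enzyme nor any auxin compound was measured in these files.

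In young grain IAGLU was among the abundant transcripts. Its level in grain at 10 DAF was 55.2, 127 and 255 TPM in replicates 1, 2 and 3, where TPM is a level scaled for transcript length and for the size of the library. These 3 libraries stood above every other library of the study, and the highest of them was 4.61 times the lowest. Within them, 89.6, 95.2 and 97.5% of all genes had a lower TPM.

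In older grain the transcript was close to 0. It was at 1.22, 1.60 and 1.07 TPM in the 3 libraries of grain at 15 DAF, and at 0.18, 0 and 0.532 TPM in those of grain at 20 DAF. The 3 stages of grain did not overlap. At 20 DAF, 1 library listed the gene at 0, and in the other two 36.8 and 40.4% of genes had a lower TPM.

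In pod the order of the stages ran the other way. IAGLU stood at 4.33, 7.35 and 4.95 TPM in pod at 10 DAF, at 13.8, 14.5 and 3.18 TPM in pod at 15 DAF, and at 29.3, 33.3 and 20.6 TPM in pod at 20 DAF. All 3 libraries at 20 DAF were above all other pod libraries. In TPM as deposited, replicate 3 at 15 DAF was below every library of pod at 10 DAF, while the other 2 were above them. These 2 groups thus overlapped, as they also did at equal library sums, set out below.

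**Figure D1:**
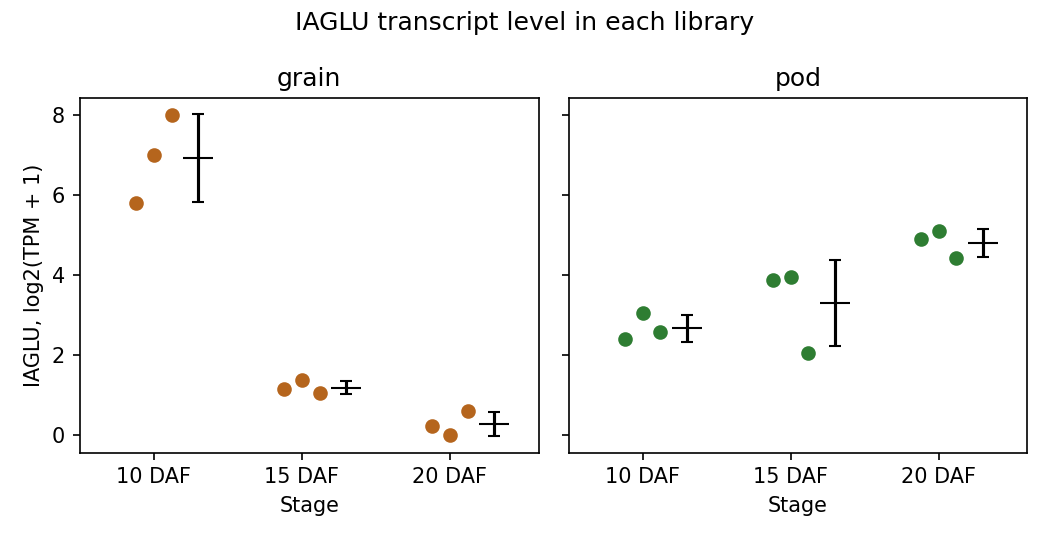
IAGLU level in each library, as log2(TPM + 1) on the vertical axis, by stage in grain (left) and pod (right). Points are single libraries and the crosses beside them are the mean and SD of the 3 libraries. The 3 libraries of grain at 10 DAF, at 55.2 to 255 TPM, are the highest, those of grain at 20 DAF are the lowest, and the libraries of pod at 20 DAF, at 20.6 to 33.3 TPM, are above all other pods.

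Ranked by group mean, IAGLU was highest in grain at 10 DAF, at 146 ± 101 TPM, with pod at 20 DAF next at 27.7 ± 6.51 TPM (SD, n = 3 libraries each). Pod at 15 DAF followed at 10.5 ± 6.35 TPM and pod at 10 DAF at 5.54 ± 1.59 TPM. Grain at 15 DAF had 1.30 ± 0.274 TPM and grain at 20 DAF had 0.237 ± 0.271 TPM. Of neighbours in this order, only pod at 15 DAF and pod at 10 DAF had libraries that overlapped, which is a description and no test. The files hold no read counts, so the depth behind each value is unknown.

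Across stages of grain, the mean of IAGLU at 20 DAF differed from that at 10 DAF by -6.65 ± 0.66 on the log2(TPM + 1) scale (SE, 3 libraries each), a scale that understates differences of low values. On the same scale grain at 15 DAF differed from grain at 10 DAF by -5.74 ± 0.64, so most of the difference lay between the first 2 stages. The mean TPM was 112 times as high in grain at 10 DAF as in grain at 15 DAF. Between grain at 20 and 15 DAF the log2 difference was -0.91 ± 0.20.

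Across stages of pod, the mean at 20 DAF exceeded that at 10 DAF by 2.13 ± 0.28 on the log2(TPM + 1) scale, and by 5.00-fold in mean TPM. Pod at 20 DAF was above pod at 15 DAF by 1.52 ± 0.65, and by 0.90 without replicate 3 of pod at 15 DAF. For pod at 15 against 10 DAF the log2 difference was 0.62 ± 0.65, smaller than its SE, and 1.24 without that replicate. The column of that library summed to 436072 TPM, while the other 17 summed to 823001 to 999633 TPM. Brought to an equal sum its IAGLU level was 7.30 TPM, still the lowest of pod at 15 DAF but within the 4.36 to 7.46 TPM of pod at 10 DAF. At equal sums the log2 difference was 0.99 for pod at 15 against 10 DAF and 1.18 for pod at 20 against 15 DAF.

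The tissue with more IAGLU changed with the stage. At 10 DAF grain had 26.3 times the mean TPM of pod, a log2(TPM + 1) difference of 4.25 ± 0.66. At 15 DAF grain was below pod by a log2 difference of -2.11 ± 0.63, and at 20 DAF by -4.53 ± 0.27. The grain and pod libraries did not overlap at any of the 3 stages. In whole organs, fewer cells of a type and less RNA per cell cannot be told apart.

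The TPM scale itself shifted in grain. The median log2 difference over the 19861 genes tested was -1.08 for grain at 20 against 10 DAF and -1.18 for grain against pod at 20 DAF, and it was 0.10 for pod at 20 against 10 DAF. After median-ratio scaling, which sets most genes level between libraries, those medians were -0.11, -0.07 and -0.02. The IAGLU differences for the same comparisons were then -6.08, -3.84 and 1.93. Its direction was the same under both scalings in all 9 comparisons between groups.

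The grain libraries also differed in their cell-type markers. The summed level of 12 seed storage and oil-body genes was 458, 1925 and 3152 TPM in replicates 1, 2 and 3 of grain at 10 DAF, the same order as IAGLU in those libraries. In grain at 15 DAF the sum was 86054 to 138143 TPM, in grain at 20 DAF it was 110671 to 142364 TPM, where IAGLU was near 0, and in pods it was 34.0 to 119 TPM. Another 3 genes of seed coat tannin synthesis summed to 1095, 334 and 383 TPM in grain at 10 DAF, an order unlike that of IAGLU. Their sum was 95.5 to 287 TPM in grain at 15 DAF, 13.2 to 50.9 TPM in grain at 20 DAF and 0.275 to 3.62 TPM in pods. The part of these tissues in the IAGLU level was not tested.

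Markers of green tissue had the order of stages opposite to IAGLU in pod. The summed level of 30 chlorophyll antenna genes was 13681 to 35141 TPM in pod at 10 DAF, 7331 to 14722 TPM in pod at 15 DAF and 2993 to 10044 TPM in pod at 20 DAF. Of the grain libraries those at 10 DAF had 4828 to 5766 TPM, those at 15 DAF 942 to 1994 TPM and those at 20 DAF 54.3 to 284 TPM, the order of stages that IAGLU had in grain. The part of green tissue in the IAGLU level was not tested either.

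Genes with a pattern like that of IAGLU were ranked by Pearson's r of log2(TPM + 1) over the 18 libraries, which share 6 groups and 1 scaling, so r describes likeness and has no p. Of 16307 other genes with a group mean of at least 5 TPM, 127 had an r of at least 0.9 and 1702 an r of at least 0.8. The closest, with r = 0.963, was Phvul.002G061500, a flavin-binding monooxygenase, a class that holds the YUCCA enzymes of auxin synthesis as well as enzymes of other substrates. Its level was 43.1, 60.4 and 48.7 TPM in grain at 10 DAF, 0.881, 2.41 and 2.61 TPM in grain at 20 DAF, 6.97, 8.84 and 5.94 TPM in pod at 10 DAF and 31.3, 24.9 and 25.8 TPM in pod at 20 DAF. Like IAGLU it was higher in grain than in pod at 10 DAF and lower at 20 DAF. Unlike IAGLU, its 3 libraries of young grain were close together.

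Among genes with a description, the next closest was Phvul.002G042900, named OPR2 after an Arabidopsis reductase of the oxophytodienoate reductase family, with r = 0.960. Genes without a description were left out of this order and may lie between those named. It had 29.1, 60.9 and 111 TPM in replicates 1, 2 and 3 of grain at 10 DAF, the same order of libraries as IAGLU. Phvul.006G103300, an oxidoreductase named ATB2, had r = 0.944, as did Phvul.005G013500, a transporter of the multidrug resistance-associated family named MRP2. Phvul.005G053800, a pentatricopeptide repeat protein, had r = 0.943.

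Among the 101 other glycosyltransferases of the UDP-sugar family that reached 5 TPM in a group, 3 had an r of at least 0.8 with IAGLU. The closest was UGT73B3, Phvul.002G054100, with r = 0.923. This gene was at 7.47, 29.5 and 94.2 TPM in grain at 10 DAF and at 55.2, 38.2 and 17.8 TPM in pod at 20 DAF. Its order of libraries in young grain was that of IAGLU, with a larger ratio of the highest to the lowest. UGT73B4, Phvul.003G047100, lay at the other end with r = -0.776. It had 2.45 ± 1.40 TPM in grain at 10 DAF, 23.8 ± 18.0 TPM at 15 DAF and 40.6 ± 18.6 TPM at 20 DAF (SD, n = 3), where IAGLU was near 0.

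**Figure D2:**
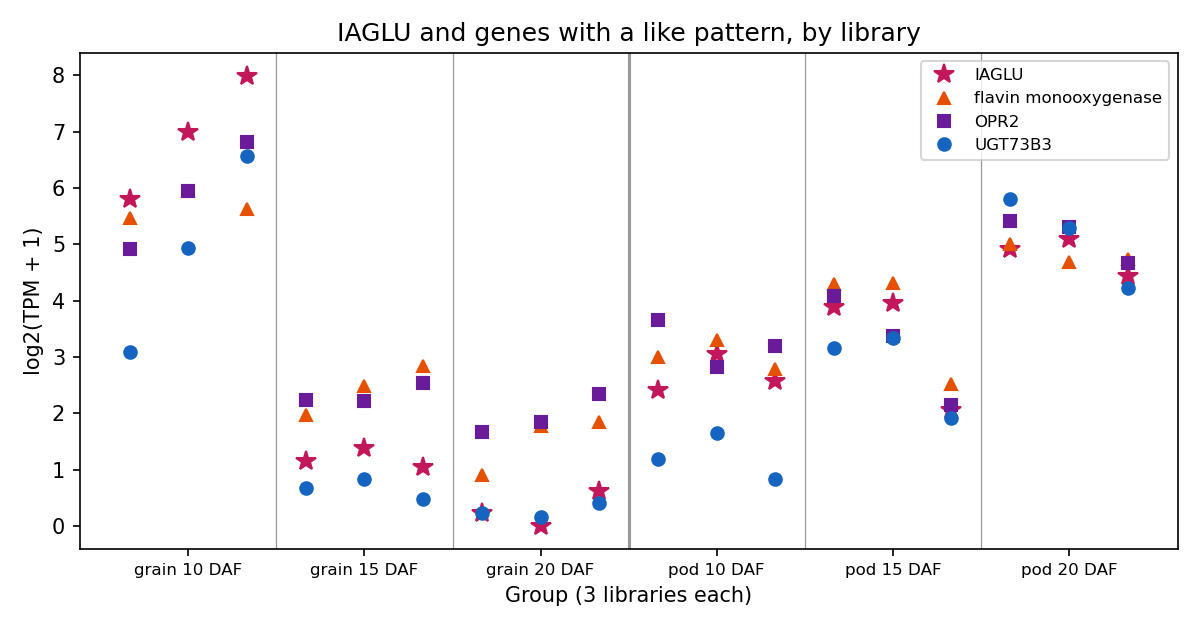
Levels of IAGLU (stars), the flavin monooxygenase Phvul.002G061500 (triangles), OPR2 (squares) and UGT73B3 (circles), as log2(TPM + 1), in the 3 libraries of each group. All 4 genes are high in grain at 10 DAF, low in grain at 15 and 20 DAF and higher in pod at 20 DAF than in pod at 10 DAF, and in grain at 10 DAF IAGLU, OPR2 and UGT73B3 share an order of libraries.

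Within its own family, the UDP-sugar glycosyltransferases that attach sugars to hormones, phenolics and other small molecules, IAGLU stood near the top in young grain. Of 204 family genes it ranked 4, 2 and 1 in replicates 1, 2 and 3 of grain at 10 DAF, 27, 23 and 34 in those of pod at 20 DAF, and 75, 72 and 72 in grain at 15 DAF. Its share of the summed TPM of the family was 3.74, 8.66 and 14.5% in grain at 10 DAF. In pod at 20 DAF that share was between 0.606 and 0.936%, and in pod at 10 DAF between 0.223 and 0.354%. The family sum was 3618 ± 253 TPM in pod at 20 DAF and 1946 ± 353 TPM in pod at 10 DAF (SD, n = 3). In grain the family sum was 1564 ± 162 TPM at 10 DAF, 799 ± 145 TPM at 15 DAF and 910 ± 172 TPM at 20 DAF.

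The other 203 family genes were compared between groups with limma on log2(TPM + 1), where a gene was called at an adjusted p (Benjamini-Hochberg, over all 19861 genes tested) below 0.05 with a log2 difference of at least 1. Of the 122 that passed the filter of 1 TPM in 3 libraries, 40 fell and 7 rose in grain at 20 against 10 DAF. Of all genes, 52.9% were called lower there and 2.67% higher, 55.6% in either direction. The median log2 difference of the 122 genes was -0.62, against -1.08 over all genes tested. After median-ratio scaling, where 16.7% of genes were lower and 8.39% higher, 20 of the family fell and 21 rose.

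In pod at 20 against 10 DAF, 19 of the 122 rose and 12 fell, where 5.38% of all genes were called higher and 6.72% lower, 12.1% in either direction. The largest rise among those that reached 5 TPM in a group was that of UGT73C2, Phvul.001G182500, with 61.0, 35.3 and 24.1 TPM in pod at 20 DAF and 0.53, 1.91 and 0.584 TPM in pod at 10 DAF, a log2 difference of 4.32 ± 0.38 (SE, limma adjusted p = 1.25e-06). When the fit used the 6 libraries of these 2 groups alone, 6 family genes were called, and 394 of all genes where the fit over 18 libraries called 2404.

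The family genes were lower in grain than in pod at each stage more often than they were higher. At 10 DAF 24 were higher in grain and 43 lower, where 17.8% of all genes were higher and 16.8% lower, 34.6% in either direction. At 15 DAF 25 were higher and 57 lower, where 8.93% of all genes were higher and 30.1% lower, 39% in either direction. At 20 DAF 14 were higher and 73 lower, where 6.25% of all genes were higher and 56.7% lower, 62.9% in either direction. After median-ratio scaling 23 were higher and 52 lower at 20 DAF, beside 14.1 and 20.1% of all genes. IAGLU had the direction of the smaller class at 10 DAF and of the larger class at the later stages.

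The crossed pattern of IAGLU, lower in grain and higher in pod at 20 than at 10 DAF, was met by few genes. Among the 19860 other genes tested, 197 were called lower in grain and higher in pod, which is 0.992%, while 812 were called lower in both tissues, 56 higher in both and 29 higher in grain and lower in pod. By size alone, 18 other genes had a log2 difference at least as far below 0 in grain as IAGLU and 368 had one at least as far above 0 in pod. None met both sizes, here or under any of the other settings and left-out libraries run. IAGLU was chosen on these differences, so its place among the genes is a description and no test. The count of 197 depended on the scaling and on single pods: it was 55 after median-ratio scaling and 26 when each tissue was fitted with only the groups compared, and 105, 329 and 127 without library 1, 2 or 3 of pod at 10 DAF.

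Of the 122 other family genes tested, 4 had the crossed pattern, beside 0.992% of all other genes tested. Both counts are for TPM as deposited, where the median log2 difference of all genes in grain was -1.08. No count of the family after median-ratio scaling is given here, where 55 of all genes were left. UGT73B3, Phvul.002G054100, differed by -4.59 ± 0.61 in grain and by 3.89 ± 0.61 in pod on the log2 scale at 20 against 10 DAF (SE). UGT88A1, Phvul.004G104100, among the 3 most abundant of the family over the 18 libraries, had 4.05, 22.3 and 11.3 TPM in grain at 20 DAF and 115, 96.3 and 114 TPM in grain at 10 DAF. In pod it had 256, 410 and 262 TPM at 20 DAF and 21.8, 65.0 and 25.8 TPM at 10 DAF. It fell by 3.27 in grain (SE 0.61, limma adjusted p = 0.000188) and rose by 3.14 in pod (SE 0.61, limma adjusted p = 0.00177). The other two were picked out after their values were seen: UGT84A1, Phvul.007G039300, with -2.00 ± 0.37 and 2.44 ± 0.37, and UGT73C5, Phvul.001G182900, with -1.25 ± 0.52 and 2.50 ± 0.52. Each difference of these genes was smaller in grain than the -6.65 of IAGLU, and each was larger in pod than its 2.13. UGT73B3 was chosen above for its likeness to IAGLU, so its values are given with no test.

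**Figure D3:**
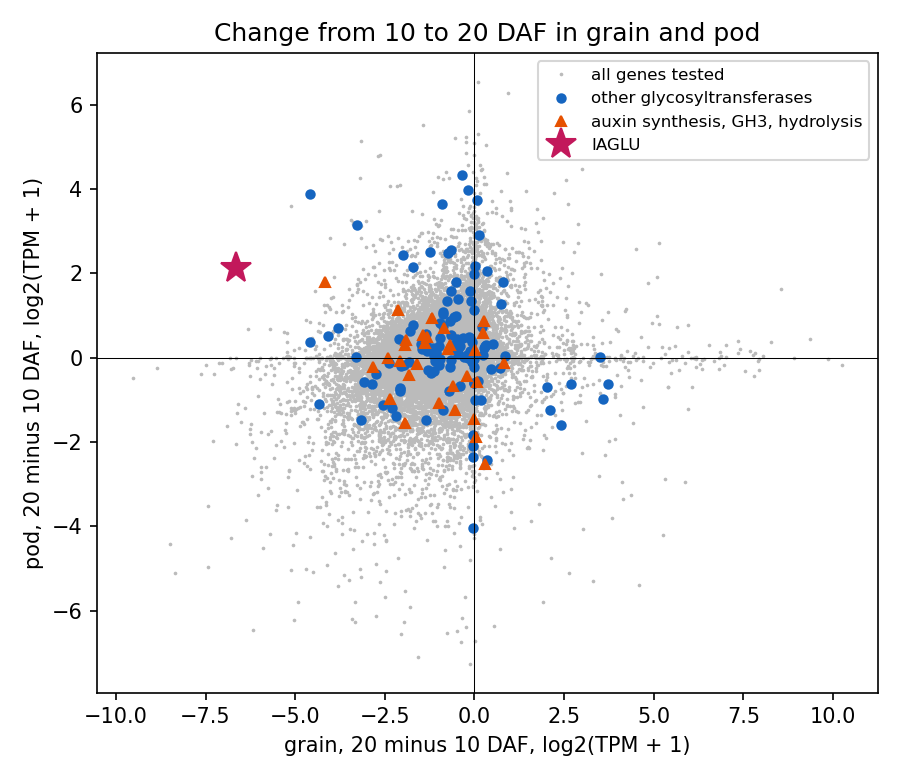
Difference of log2(TPM + 1) at 20 minus 10 DAF in grain (horizontal) and in pod (vertical) for every gene tested (grey), the other glycosyltransferases (blue), the genes of auxin synthesis, GH3 conjugation and conjugate hydrolysis (orange) and IAGLU (star). IAGLU, which was chosen on these differences, lies at -6.65 and 2.13, with no gene as far out in both directions.

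The nearest functional relatives of IAGLU are the glucosyltransferases of groups 74, 75 and 84, of which 14 others were described and 7 passed the filter. In grain at 20 against 10 DAF 4 of the 7 fell and none rose, where 52.9% of all genes were called lower, and 3 fell after median-ratio scaling, where 16.7% were. UGT74B1, Phvul.002G075200, named after an Arabidopsis enzyme of glucosinolate synthesis, had 0.438, 8.29 and 1.85 TPM in grain at 20 DAF and 25.5, 58.0 and 66.2 TPM in grain at 10 DAF. It fell by 3.81 on the log2 scale (SE 0.53, limma adjusted p = 9.9e-06). Its replicates in young grain had the same order as those of IAGLU, but in pods it stayed between 0 and 3.04 TPM. Grain and pod at 10 DAF differed by 5.09 ± 0.53 for this gene (limma adjusted p = 3.15e-07).

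UGT84B1 of Arabidopsis is an enzyme that makes the glucose ester of indole-3-acetic acid, and 2 bean genes with neighbouring identifiers carry its name. Phvul.007G039600 had 0.235, 0.572 and 0 TPM in grain at 20 DAF and 28.4, 20.5 and 14.4 TPM in grain at 10 DAF, and fell by 4.10 (SE 1.09, limma adjusted p = 0.00325). In pod at 20 DAF it was at 82.9 TPM in replicate 2 and at 0.054 and 0.178 TPM in the other two. The second, Phvul.007G039400, had 14.1, 96.9 and 6.92 TPM in pod at 20 DAF and 0.631, 1.58 and 0.417 TPM in pod at 10 DAF, a rise of 3.65 ± 0.64 (limma adjusted p = 0.000753, and 0.116 when only those 6 libraries were fitted). Replicate 2 was also the highest pod for IAGLU at 20 DAF, but by 33.3 TPM against 29.3 and 20.6 TPM. How reads were shared between such similar genes is not given in the sources used here, so the split between this pair is uncertain.

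UGT84A1, Phvul.007G039300, of group 84, was named above for its crossed pattern. UGT74F2, Phvul.004G086500, named after a salicylate glucosyltransferase of Arabidopsis, had 3.27 ± 0.493 TPM in grain at 20 DAF and 17.4 ± 1.51 TPM in grain at 10 DAF (SD, n = 3). It fell by 2.11 (SE 0.37, limma adjusted p = 9.55e-05), and by 1.00, just short of a call, after median-ratio scaling. UGT74F1, Phvul.004G030400, was listed at 0 in all libraries of grain at 10 and 20 DAF and at 9.36, 12.03 and 18.7 TPM in pod at 10 DAF, the reverse of IAGLU at that stage. The summed level of the 14 genes was 55.3 to 218 TPM in pod at 20 DAF and 28.0 to 42.6 TPM in pod at 10 DAF, and IAGLU alone reached 20.6 to 33.3 and 4.33 to 7.35 TPM in those groups. In grain at 10 DAF the 14 summed to 81.9, 101 and 109 TPM in replicates 1, 2 and 3, below IAGLU alone in replicates 2 and 3.

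Taken with synthesis, GH3 and hydrolysis genes, 60 other genes of auxin metabolism were described and 37 passed the filter. In grain at 20 against 10 DAF 19 of the 37 fell and none rose, with a median log2 difference of -1.19, close to the -1.08 of all genes and with a share of lower calls like the 52.9% of all genes. After median-ratio scaling 10 fell and 4 rose, where 16.7% of all genes were lower and 8.39% higher. In pod at 20 against 10 DAF 3 rose and 4 fell, which is 8.11 and 10.8% of the 37, near the 5.38 and 6.72% of all genes. In the fit of those 2 pod groups alone, 1 of the 37 was called.

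Between tissues, 7 of the 37 were higher in grain than in pod at 10 DAF, the direction of IAGLU there, and 13 were lower. The 7 are 18.9% of the genes, near the 17.8% of all genes, and the 13 are 35.1%, beside 16.8%. At 15 DAF 2 were higher and 14 lower, beside 8.93 and 30.1% of all genes. At 20 DAF none was higher and 21 were lower, as IAGLU was, beside 6.25 and 56.7% of all genes.

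Of 24 synthesis genes 11 were tested, and 5 fell in grain at 20 against 10 DAF, which is 45.5%, below the 52.9% of all genes. The monooxygenase Phvul.002G061500, described above for its likeness to IAGLU, was among them and was the synthesis gene that rose in pod. YUC4, Phvul.001G054600, of the YUCCA class that makes indole-3-acetic acid from its pyruvate precursor, had 0.148 ± 0.256 TPM in grain at 20 DAF and 5.34 ± 2.28 TPM in grain at 10 DAF and was listed at 0 in all pods. TAR2, Phvul.009G175300, of the aminotransferase step before it, had 0.264 ± 0.282 TPM in grain at 20 DAF and 4.53 ± 0.641 TPM in grain at 10 DAF (SD, n = 3). YUC4 fell by 2.41 (SE 0.25) and TAR2 by 2.15 (SE 0.41). Both were picked out after their values were seen, so their differences are given with no test. YUC2, Phvul.004G163400, was at 0.289 ± 0.273 TPM in grain at 20 DAF and 0.637 ± 0.948 TPM in grain at 10 DAF. It was not called there (-0.22 ± 0.58, limma adjusted p = 0.766). At 10 DAF YUC2 was lower in grain than in pod (-2.26 ± 0.58, limma adjusted p = 0.00398), the reverse of IAGLU. The synthesis genes summed to 20.3 ± 2.15 TPM in grain at 20 DAF and 115 ± 5.85 TPM in grain at 10 DAF. In pod they summed to 118 ± 29.9 TPM at 20 DAF and 90.6 ± 9.88 TPM at 10 DAF. The 3 most abundant were the flavin-binding monooxygenases Phvul.002G061500 and Phvul.005G030400, which have no narrower name, and the nitrilase NIT4, Phvul.011G096700. Their means were 50.7, 29.8 and 14.3 TPM in grain at 10 DAF and 27.3, 21.9 and 49.3 TPM in pod at 20 DAF. Whether these genes act in auxin synthesis was not tested, so the sums describe the list.

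The GH3 genes, whose enzymes join auxin or jasmonate to amino acids, were called in both directions between grain and pod at 10 DAF. Of 13 described, 10 were tested, and 3 were higher in grain, as IAGLU was, and 6 lower, where 17.8% of all genes were higher and 16.8% lower. JAR1, Phvul.010G111400, which in Arabidopsis joins jasmonate to isoleucine, had 7.12, 4.48 and 6.78 TPM in grain and 26.9, 55.5 and 16.8 TPM in pod at 10 DAF, a difference of -2.11 ± 0.35 (limma adjusted p = 7.27e-05). GH3.2, Phvul.002G014400, of the auxin-conjugating class, had the direction of IAGLU, with 6.32, 3.41 and 11.5 TPM in grain and 4.01, 0.423 and 0.363 TPM in pod at 10 DAF (1.79 ± 0.43, limma adjusted p = 0.00251). It fell by 2.36 in grain at 20 against 10 DAF (SE 0.43, limma adjusted p = 0.000145), but at 0 to 0.2 TPM in pod at 20 DAF it did not share the high level of IAGLU there. The GH3 genes summed to 31.5 ± 10.3 TPM in grain at 10 DAF, below IAGLU alone, and to 138 ± 48.3 TPM in pod at 10 DAF.

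All 9 hydrolysis genes were tested, and 6 fell in grain at 20 against 10 DAF, where 52.9% of all genes did. After median-ratio scaling 1 fell and 1 rose, where 16.7% of all genes were lower and 8.39% higher. In pod none was called, where 12.1% of all genes were. IAR3, Phvul.010G142700, had 2.02, 4.25 and 8.05 TPM in grain at 20 DAF and 39.9, 30.9 and 38.8 TPM in grain at 10 DAF, and fell by 2.83 (SE 0.38, limma adjusted p = 6.92e-06). Its pod means were 27.1 ± 5.42 TPM at 20 DAF and 31.4 ± 2.08 TPM at 10 DAF. The most abundant of the class, the peptidase M20 family gene Phvul.002G007200, had 199 ± 38.7 TPM in grain at 20 DAF and 330 ± 40.8 TPM in grain at 10 DAF and was called in none of the 5 comparisons. The 3 most abundant members carry only the description of that peptidase family. Whether they act on auxin conjugates is not given by that description.

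**Figure D4:**
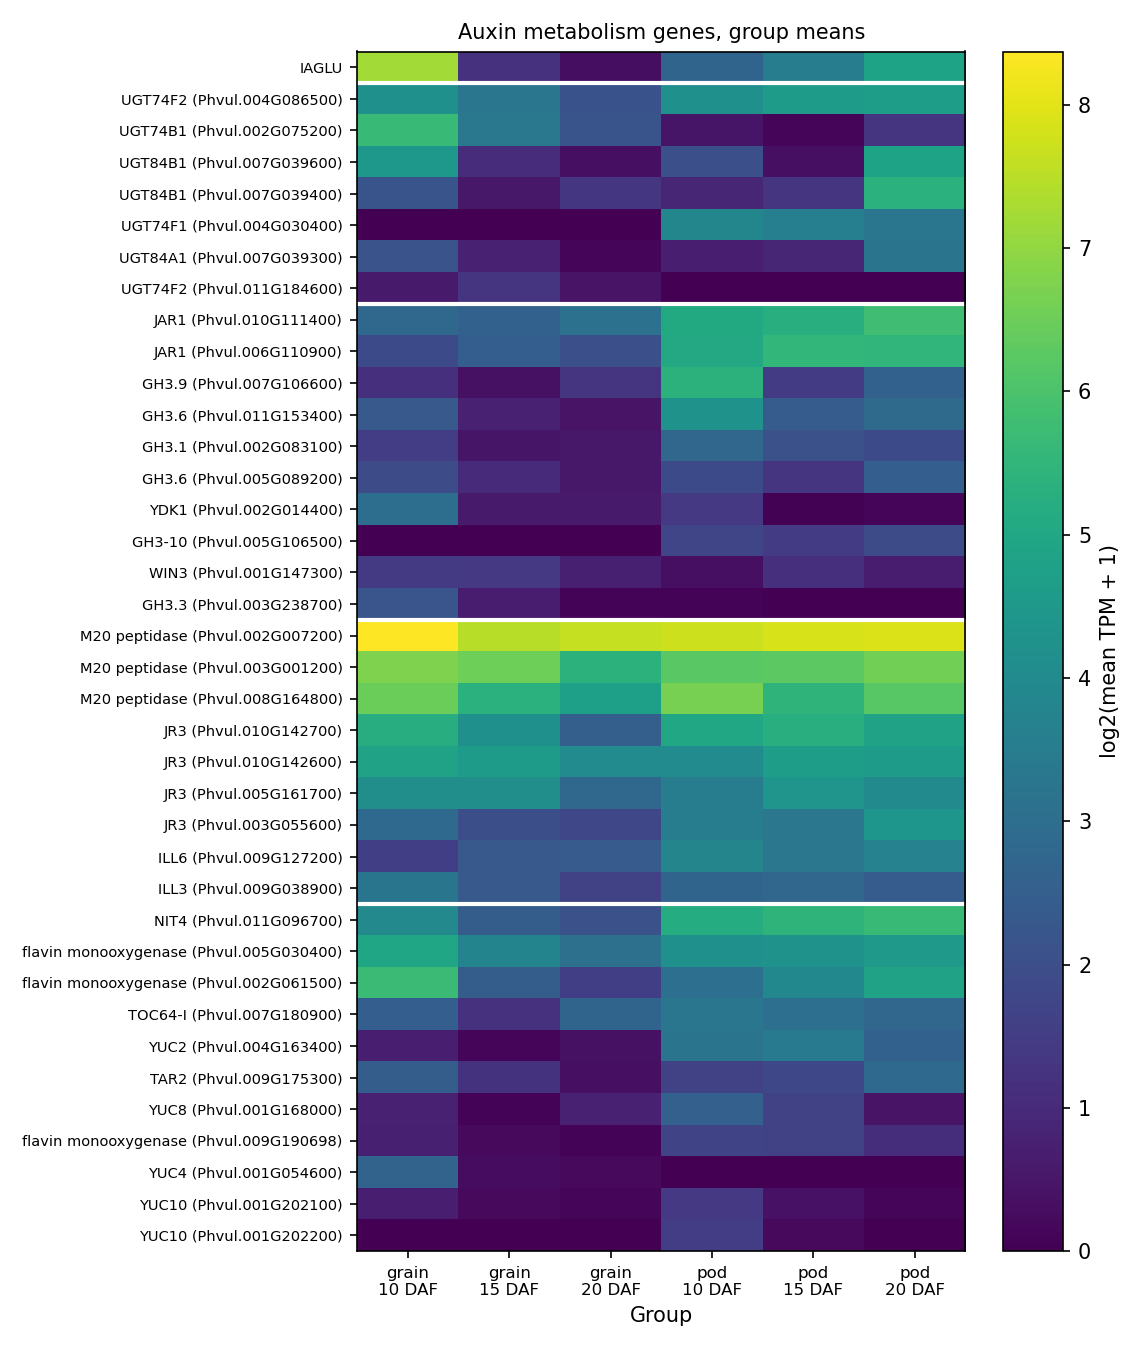
Group means, as log2(mean TPM + 1), of IAGLU (top) and the 37 tested genes of the glucosyltransferase groups, GH3, hydrolysis and synthesis classes, in blocks separated by white lines, for the 6 groups. IAGLU is bright in grain at 10 DAF and dark in grain at 20 DAF, with pod at 20 DAF brighter than pod at 10 DAF, and the monooxygenase Phvul.002G061500 has a like run of colours. YDK1 is the gene called GH3.2 in the text, and JR3 is another name of IAR3.

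Genes of auxin response and transport were set beside IAGLU by the same test. Of 29 Aux/IAA repressor genes, which encode short-lived inhibitors of auxin response, 25 were tested, and 15 fell in grain and 8 fell in pod at 20 against 10 DAF, with none rising in either. In the same comparisons 52.9% of all genes were called lower and 2.67% higher in grain, and 6.72% lower and 5.38% higher in pod. After median-ratio scaling 6 of the 25 fell and 2 rose in grain and 9 fell in pod. With that scaling 16.7% of all genes were lower and 8.39% higher in grain, and 8.03% lower and 4.64% higher in pod. IAA17, Phvul.005G173000, had 149 ± 145 TPM in grain at 20 DAF and 757 ± 121 TPM in grain at 10 DAF and fell by 2.88 (SE 0.60, limma adjusted p = 0.00048). Of 85 SAUR genes, which auxin induces early, 35 were tested, and 14 fell and 2 rose in grain while 6 fell and 5 rose in pod. With median-ratio scaling 5 SAUR genes were lower and 5 higher in grain. Of 35 carrier genes 21 were tested, and 11 fell in grain, where none rose, while 4 fell and 1 rose in pod. After median-ratio scaling 6 carriers fell and 1 rose in grain. The shares lower in grain before that scaling were 60% for Aux/IAA, 40% for SAUR and 52.4% for carrier genes, none far above the 52.9% of all genes. In pod the shares lower were 32% for Aux/IAA, 17.1% for SAUR and 19.0% for carrier genes, beside 6.72% of all genes. The shares higher in pod were 0, 14.3 and 4.76% in that order, beside 5.38% of all genes.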

How the data were processed

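RNA was extracted with TRIzol and made into libraries with a SMARTer mRNA kit, per the labels' protocols. The values are TPM per gene in 1 table deposited by the authors; no source used here names the aligner, the counting method or the genome build. Columns of pod at 10 DAF are numbered 1 to 3 while their titles are numbered 3 to 5, so they were matched to the group only. With no read counts, depth is unknown and no counting interval is given.

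Genes with at least 1 TPM in 3 of the 18 libraries (19861 of 27420) were fitted on log2(TPM + 1) with limma 3.58.1 in R 4.3.3 (6 group means, moderated with a mean trend, 12 residual degrees of freedom, Benjamini-Hochberg adjustment), after the steps were tested on simulated data. IAGLU errors are the SE from its own 2 groups. The members of the lists were matched by words in the deposited descriptions, which 4644 genes lack. IAGLU and the lists were chosen with earlier results of these data known, and 3 list patterns were narrowed after the descriptions were read. Named genes are the 3 most abundant members of each list, in each of 5 comparisons the called members that differed most upward and downward (at least 5 TPM in the higher group), the 5 genes most like IAGLU and the 3 most and least like it in the family. Any gene outside that rule is said to be picked out after its values were seen. Alternatives changed the pseudocount, the filter, the scaling, the libraries fitted, the variance trend and the replicate block, and left out single libraries. No sequence or coordinate is given, since the reference table held none of the deposited identifiers.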

Additional observations from a re-analysis of the deposited data

Results flagged for a closer look

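IAGLU differed in opposite directions in the 2 tissues. Its log2(TPM + 1) at 20 minus 10 DAF was -6.65 in grain and 2.13 in pod, so the difference of the grain change minus the pod change was -8.79. All 3 grain libraries at 20 DAF were below all 3 at 10 DAF, and all 3 pod libraries at 20 DAF were above all 3 at 10 DAF. The difference between the tissues was not tested, since the gene was chosen on these values.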

How the results depend on the processing

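Of 349 values and counts under other settings, 328 stayed within the spread of the replicates or, for counts of called genes, within 1.5 times, which says nothing of how a count splits into higher and lower. No IAGLU difference changed sign. The family genes called in grain at 20 against 10 DAF split into 21 higher and 20 lower after median-ratio scaling, against 7 and 40, with a median of 0.01 against -0.62. With a pseudocount of 0.1 TPM the IAGLU log2 difference was -8.86 for grain at 20 against 10 DAF, -2.40 for grain at 20 against 15 DAF and -6.71 for grain against pod at 20 DAF. It was -3.84 for the last after median-ratio scaling, and -1.35 for grain at 20 against 15 DAF without the 50 most abundant genes. Leaving out single libraries gave -7.21 to -6.12 for grain at 20 against 10 DAF, 1.99 to 2.33 for pod at 20 against 10 DAF, 3.72 to 4.82 for grain against pod at 10 DAF and 0.29 to 1.24 for pod at 15 against 10 DAF. The upper end of the last range, without replicate 3 of pod at 15 DAF, was also set out on its own after seeing the data.

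A filter of 5 TPM left 3 called auxin metabolism genes in pod at 20 against 10 DAF, where 7 were called, and 12 for grain against pod at 10 DAF, where 20 were. That filter kept 25 auxin genes and 15726 genes in all, of which 1848 and 5619 were called in these comparisons. Fitting only the groups compared in pod left 1 of the auxin genes, 6 of 31 family genes and 394 of 2404 genes in all. For grain at 20 against 10 DAF 4983 genes were called after median-ratio scaling and 5393 without the 50 most abundant genes, against 11046. For grain against pod at 20 DAF these counts were 6780 and 7683, against 12502. The crossed pattern was met by 55, 87 and 26 genes under median-ratio scaling, without the 50 most abundant genes and with the groups compared only, and by 105 to 329 when a library was left out, against 197. Leaving out pod libraries gave 1517 to 3004 genes for pod at 20 against 10 DAF, the ends being without libraries 1 and 2 of pod at 10 DAF. Without the 50 most abundant genes 11 of 37 auxin genes fell and 4 rose, and 22 of 122 family genes fell and 22 rose, in grain at 20 against 10 DAF. Of all 19861 genes, 3669 fell and 1724 rose in that comparison. In grain against pod at 20 DAF 20 family genes were higher and 57 lower, where 2548 of all genes were higher and 5135 lower. The cause of these shifts was not tested.

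Of 2830 values of named genes, 166 lost their call and 4 changed sign: Phvul.009G060600 in grain at 20 against 10 DAF (0.20 after median-ratio scaling, 0.18 without the 50 most abundant genes), and for grain against pod at 20 DAF Phvul.005G165600 (0.0809) and Phvul.003G001200 (0.21), both after median-ratio scaling. With the replicate number as a block, in the 15 libraries whose columns carry matching numbers, 19 auxin and 48 family genes were called for grain at 20 against 10 DAF, 16 and 82 for grain against pod at 15 DAF, and 21 and 87 at 20 DAF. Of all 19861 genes, 11123, 7836 and 12586 were called in the same comparisons. Same-numbered libraries of different groups had correlations of -0.165 to 0.237, 9 of 30 over 0.1, and the own number was the closest in 23 of 60 comparisons. These values show no clear pairing by number. With so few libraries per group they cannot settle whether same-numbered libraries share a plant, which the labels do not say. Comparisons with pod at 10 DAF had no block fit, since its columns carry no matching numbers.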
